A study of Mus musculus with 8 samples.

Results

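Vitamin A reaches tissues in the blood as retinol, bound to the carrier RBP4, which itself travels on transthyretin (TTR). The membrane receptor STRA6 takes up retinol from RBP4. Inside the cell retinol is oxidised to retinal, and the retinal dehydrogenases of the ALDH1A family oxidise retinal to retinoic acid, the ligand of nuclear receptors such as RARβ.

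The 8 genes described here were chosen by name from this system: the *Aldh1a* family (*Aldh1a1*, *Aldh1a7*, *Aldh1a2* and *Aldh1a3*), the carriers *Rbp4* and *Ttr*, the receptor gene *Stra6* and the nuclear receptor gene *Rarb*. They are 8 of the 55401 genes listed for each kidney, and all 8 passed the filter on low counts that left 14326 genes. They were proposed with the contrast between genotypes already known, so their differences between groups are given as a description, without a test.

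Transcripts were sequenced from the whole kidneys of 8 mice. The 4 controls had salt-inducible kinase (SIK) genes flanked by loxP sites and no Cre recombinase, with the genotype label SIK1f/f;SIK2f/f,SIK3f/f. The 4 SIK mutants were labelled with the same floxed alleles plus Six2-Cre, while the study's text gives 1 floxed and 1 intact *Sik1* allele for such mice, and the name SIK mutant is used here. Six2-Cre recombines in nephron progenitors and hence in the tubule cells that descend from them, but not in stroma, endothelium or collecting duct, so intact alleles remain in part of each kidney. Age, sex, litter and library batch are not given by the labels, and nothing there says more of the replicates than that they are separate kidneys.

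In these libraries *Sik3* was 58.6 to 66.5 normalised read counts (CPM, scaled to a common library total) in control kidneys and 33.7 to 43.1 CPM in SIK mutants, without overlap. *Sik2* averaged 9.14 ± 0.841 CPM and 6.72 ± 2.07 CPM (SD, n = 4 per group), with overlap, and *Sik1* was higher in SIK mutants, at 43.4 to 54.1 CPM against 36.8 to 43.1 CPM. Counts over a whole gene do not show which exons were deleted. Depth was 10179648 to 10925100 counts per kidney. Markers of proximal tubule, loop of Henle and distal tubule, and collecting duct were all detected, and their summed levels overlapped between groups. Single markers did differ. The proximal tubule marker *Slc5a2* was 223.4 to 319.6 TPM (level per length) in controls and 172.2 to 192.3 TPM in SIK mutants. Of 6 collecting duct markers, 1 was lower in all SIK mutants by CPM, and no marker of these lists was higher in all of them. *Slc7a13*, also of proximal tubule, was 1.3 and 1.29 TPM in controls 3 and 4 and 197.5 to 312.3 TPM elsewhere. Reads of 4 Y-linked genes were present in 6 kidneys (76.8 to 94.9 CPM in sum) and almost absent in controls 3 and 4 (0 and 0.175 CPM). By these reads controls 3 and 4 were female and the other 6 kidneys male, and the study's text says that both sexes were used. All 4 SIK mutants had Y-linked reads, so over all kidneys genotype and sex cannot be fully told apart. The contrast of each of the 8 genes is therefore also given over the 6 kidneys with Y-linked reads, that is, controls 1 and 2 against the 4 SIK mutants.

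*Aldh1a1* and *Aldh1a7* are neighbours on mouse chromosome 19. On GRCm38, *Aldh1a1* (ENSMUSG00000053279.8) lies at chr19:20492715-20643465 on the plus strand and *Aldh1a7* (ENSMUSG00000024747.3) at chr19:20692953-20727562 on the minus strand, with 49.5 kb between them. *Aldh1a7* is a rodent paralog whose product is known for little activity on retinal. The bases directly before the annotated starts of their main transcripts are shown because they show how alike the copies are. The ratio of the *Aldh1a1* to the *Aldh1a7* level was 0.791 to 1.32 in the 6 kidneys with Y-linked reads, but 1.82 and 1.62 in controls 3 and 4. Both sequences are RefSeq's for GRCm38.p6, run 5′ to 3′ on the gene's own strand and end at the last base before the main coding transcripts of GENCODE M21. The *Aldh1a1* stretch is chr19:20601811-20601960, which is intronic in a longer *Aldh1a1* transcript, and the *Aldh1a7* stretch is chr19:20727563-20727712. Capitals mark aligned runs of at least 10 identical bases.
*Aldh1a1*: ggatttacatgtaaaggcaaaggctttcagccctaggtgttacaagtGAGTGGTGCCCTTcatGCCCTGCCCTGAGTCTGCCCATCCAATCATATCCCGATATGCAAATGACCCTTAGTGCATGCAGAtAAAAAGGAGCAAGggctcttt
*Aldh1a7*: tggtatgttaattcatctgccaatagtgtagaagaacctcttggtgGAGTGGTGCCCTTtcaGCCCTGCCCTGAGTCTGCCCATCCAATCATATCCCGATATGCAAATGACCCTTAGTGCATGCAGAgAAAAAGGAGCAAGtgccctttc

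Over the 142 aligned bases, 118 were identical (83.1%), with 1 uninterrupted run of 65 bases. That run holds the octamer motif ATGCAAAT, beginning 49 bases before the *Aldh1a1* transcript and 50 bases before the *Aldh1a7* transcript, and the motif CCAAT upstream of it. Searched on both strands, the octamer was present in 1.74% of 32851 promoter windows of 300 bases and CCAAT in 37.4%. The motifs do not overlap each other here. Of the 11 promoter windows that RefSeq gives for the genes described, 3 held the octamer, those of *Aldh1a1* (the start shown), *Aldh1a7* and *Aldh1a2*. The cAMP response element TGACGTCA, present in 1.79% of all windows, was in 0 of the 11. No window was given for *Aldh1a3* and *Ttr*.

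*Aldh1a1* was higher in every SIK mutant kidney than in every control kidney. Its normalised counts were 19.3, 12.1, 12.6 and 6.74 CPM in controls 1 to 4 and 38.0, 49.9, 43.4 and 49.4 CPM in SIK mutants 1 to 4. The groups did not overlap, and the lowest SIK mutant lay 1.97-fold above the highest control. The log2 fold change was 1.84 (SE 0.256) over 8 kidneys, and 1.54 (SE 0.196) over the 6 kidneys with Y-linked reads. Control 3 lay between controls 2 and 1, and control 4 was the lowest of all.

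*Aldh1a7* followed a similar order. Controls 1 to 4 had 24.6, 12.7, 6.96 and 4.47 CPM, and SIK mutants 1 to 4 had 37.9, 43.8, 33.2 and 48.6 CPM. The groups again did not overlap, but the gap was narrower, with the lowest SIK mutant 1.35-fold above control 1. Its log2 fold change was 1.76 (SE 0.426) over 8 kidneys and 1.14 (SE 0.251) over the 6 kidneys. Controls 3 and 4 were both below all other kidneys for this gene, and against them the SIK mutant mean was 7.16-fold higher, compared with 2.19-fold against controls 1 and 2.

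**Figure D1:**
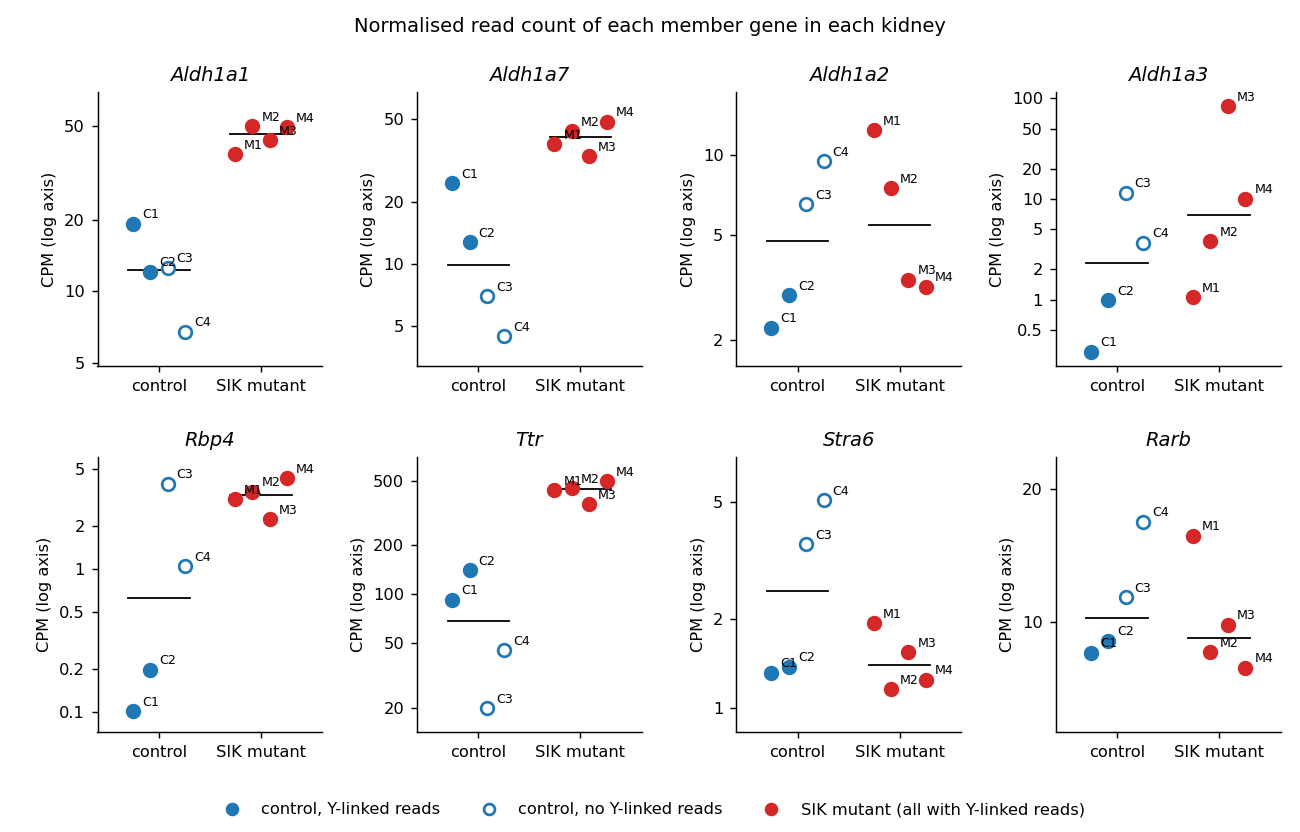
Normalised read counts (CPM, log axis, a separate scale in each panel) of the 8 genes in control kidneys (C1 to C4, blue) and SIK mutant kidneys (M1 to M4, red), with group medians as lines and open circles for the controls without Y-linked reads. *Aldh1a1*, *Aldh1a7* and *Ttr* are higher in all 4 SIK mutants than in all 4 controls, while *Aldh1a3* reaches 83.3 CPM in SIK mutant 3 alone.

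Because the paralogs are so similar, reads shared between them were examined. The coding sequences of the main transcripts, 1503 bases each, were identical at 91.6% of positions, and the longest identical stretch was 100 bases. It covers coding bases 757 to 856 of both genes and is shown because it is the only stretch at which a read of 100 bases cannot be placed in 1 gene:
shared coding stretch: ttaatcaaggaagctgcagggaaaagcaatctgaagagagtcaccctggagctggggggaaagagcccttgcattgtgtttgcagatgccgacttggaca

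Of all windows of 50 bases in the *Aldh1a7* transcript, 7.49% also occurred in an *Aldh1a1* transcript, against 2.51% of windows of 75 bases, 0.0508% (1 window) of 100 bases and 0 of 150 bases. The read length is not given in the sources used here. The fragment length implied by the deposited effective lengths was 205.1 to 219.8 bases. RSEM's posterior standard deviation, the uncertainty left by reads that fit more than 1 gene, was 0 for both genes in every kidney, and every expected count of the 8 genes was whole to within 0.001. Of the 14326 tested genes, 14.4% had a posterior standard deviation above 0 in at least 1 kidney. With the counts of both genes summed, the log2 fold change was 1.80. The antisense gene *C730002L08Rik* and the pseudogene *Gm6684*, which overlap *Aldh1a1*, had 0 counts in every kidney. Whether the counting used strand is not given in the sources used here.

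Levels of the paralogs were compared per length, in TPM. The ratio of the *Aldh1a1* to the *Aldh1a7* level was 0.791 and 0.953 in controls 1 and 2, 1.82 and 1.62 in controls 3 and 4, and 1.02, 1.17, 1.32 and 1.02 in SIK mutants 1 to 4. The ratio thus ran from 0.791 to 1.32 in the 6 kidneys with Y-linked reads, and *Aldh1a1* exceeded *Aldh1a7* most in the other controls. Their summed level was 6.89 to 21.7 TPM in controls and 45.9 to 58.7 TPM in SIK mutants.

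**Figure D2:**
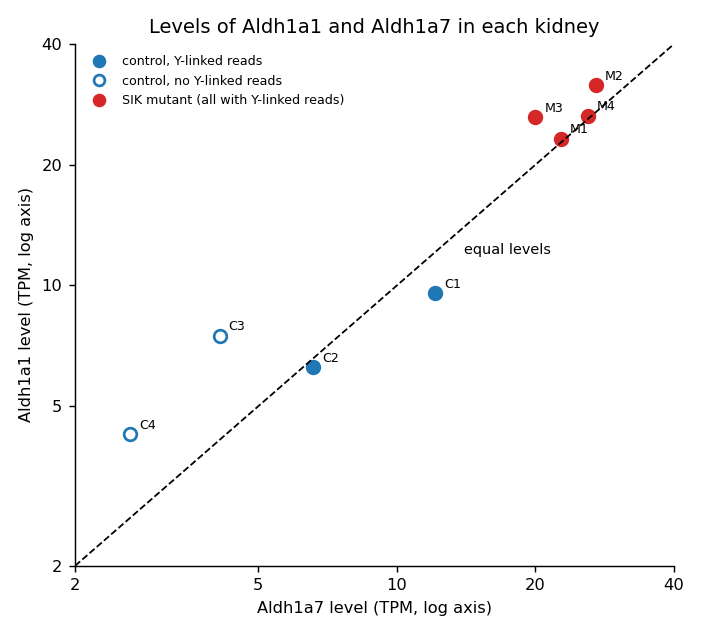
*Aldh1a1* level against *Aldh1a7* level (TPM, both log axes) in each kidney, with controls in blue, SIK mutants in red, open circles for controls without Y-linked reads and a dashed line of equal levels. The SIK mutants sit at up to 27.1 TPM of *Aldh1a7* and 23.2 to 31.6 TPM of *Aldh1a1*, above every control, and controls 3 and 4 lie farthest above the line.

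Within 500 kb of the pair, 12 other genes are annotated, of which 1 passed the filter. This was *Anxa1*, which encodes the phospholipid-binding protein annexin A1. It averaged 5.72 ± 1.34 CPM in controls and 6.80 ± 1.41 CPM in SIK mutants (SD, n = 4 per group), a log2 fold change of 0.25 that did not pass the test (edgeR, FDR 0.902).

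*Aldh1a2*, the retinal dehydrogenase needed in the embryo, had low counts in whole kidney. Controls 1 to 4 had 2.23, 2.96, 6.52 and 9.46 CPM, and SIK mutants 1 to 4 had 12.4, 7.49, 3.39 and 3.18 CPM. The groups overlapped widely, and the highest kidneys were SIK mutant 1 and control 4. A log2 fold change of 0.32 (SE 0.538) became −0.18 without SIK mutant 1 and 1.36 (SE 0.588) over the 6 kidneys. *Aldh1a2* is located at chr9:71215789-71296243 on the plus strand.

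*Aldh1a3*, the third retinal dehydrogenase, was dominated by 1 kidney. Controls 1 to 4 had 0.304, 0.988, 11.5 and 3.68 CPM, and SIK mutants 1 to 4 had 1.06, 3.83, 83.3 and 10.1 CPM. SIK mutant 3 alone lay above the control range. On all 8 kidneys the log2 fold change was 2.54 (SE 1.26), and it fell to 0.25 without SIK mutant 3 and rose to 3.83 without control 3. Over the 6 kidneys it was 5.22 (SE 2.05), against controls with 3 and 10 counts. The summed level of 5 urothelial markers, *Upk1a*, *Upk1b*, *Upk2*, *Upk3a* and *Krt5*, was 4.30, 14.3, 49.9 and 18.5 TPM in controls 1 to 4 and 19.5, 33.3, 32.8 and 35.8 TPM in SIK mutants 1 to 4, highest in control 3. The summed level of 4 mesothelial markers, *Msln*, *Upk3b*, *Lrrn4* and *Krt19*, was 3.21, 4.86, 16.9 and 10.5 TPM in controls and 7.99, 11.7, 17.0 and 14.8 TPM in SIK mutants, in the same order as *Aldh1a3* within each group. *Krt19* made up most of this sum in each kidney, and *Msln* (3.14 TPM) and *Lrrn4* (0.22 TPM) were instead highest in control 4. The summed level of 6 collecting duct markers was 241.5 to 544.3 TPM in controls and 398.9 to 679.1 TPM in SIK mutants, highest in control 3 and SIK mutant 3. The part of these cell types in the *Aldh1a3* level was not tested. *Aldh1a3* is located at chr7:66390890-66427517 on the minus strand.

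Transthyretin was the most abundant transcript of the 8 and had the widest gap between groups. *Ttr* was at 92.6, 140.9, 19.8 and 45.1 CPM in controls 1 to 4 and at 436.6, 451.8, 359.1 and 499.0 CPM in SIK mutants 1 to 4. The groups did not overlap, and the lowest SIK mutant was 2.55-fold above the highest control. The log2 fold change was 2.55 (SE 0.496) over 8 kidneys and 1.91 (SE 0.199) over the 6 kidneys with Y-linked reads. As for *Aldh1a7*, controls 3 and 4 were below all other kidneys. Against controls 1 and 2 the SIK mutant mean was 3.74-fold higher, and against controls 3 and 4 it was 13.5-fold higher. *Ttr* is located at chr18:20665280-20674321 on the plus strand.

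*Rbp4* was near the limit of detection in part of the controls. Controls 1 to 4 had 0.101, 0.198, 3.96 and 1.05 CPM, and SIK mutants 1 to 4 had 3.09, 3.48, 2.23 and 4.33 CPM. Control 3 lay within the SIK mutant range, so the groups overlapped. *Rbp4* had a log2 fold change of 1.26 (SE 0.747) over 8 kidneys and 2.78 without control 3. Among the 6 kidneys, controls 1 and 2 held 3 *Rbp4* reads together and the SIK mutants 142. This is a ratio of 21.9, with an exact (Clopper-Pearson) 95% interval of 7.33 to 107.2 that covers counting error only. A count of 3, taken as the floor, corresponded to 0.263 to 0.304 CPM, and controls 1 and 2 were under it. *Rbp4* is located at chr19:38116629-38125281 on the minus strand.

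Adipose tissue and liver express *Rbp4*, and liver expresses *Ttr*, so markers of fat and liver were read beside both. All 7 adipocyte markers (*Plin1*, *Cidec*, *Lep*, *Adipoq*, *Cfd*, *Fabp4* and *Ucp1*) were detected, and the mean of each was higher in SIK mutants. Their summed level was 26.8, 37.6, 370.0 and 95.0 TPM in controls 1 to 4. In SIK mutants 1 to 4 it was 291.5, 255.2, 291.6 and 351.1 TPM. By CPM *Rbp4* had the same order over the controls, lowest in control 1, then controls 2, 4 and 3, but not over the SIK mutants. Controls 1 and 2 held only 1 and 2 *Rbp4* reads, under the floor, so their order is not settled. By TPM it was reversed, at 0.48 and 0.26 TPM. The summed urothelial and mesothelial markers given above also rose over controls 1, 2, 4 and 3 in this order. The part of these cell types in the *Rbp4* result was not tested. In bulk tissue, more cells of a type and more RNA per cell cannot be told apart. *Aldh1a1* and *Ttr* did not have this order: control 3, whose summed adipocyte markers were the highest of all kidneys, had 12.6 CPM of *Aldh1a1* and the lowest *Ttr*, 19.8 CPM. Without *Ucp1*, a choice made after the data were seen, control 3 was at 304.4 TPM, within the SIK mutant range of 236.8 to 320.0 TPM.

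**Figure D3:**
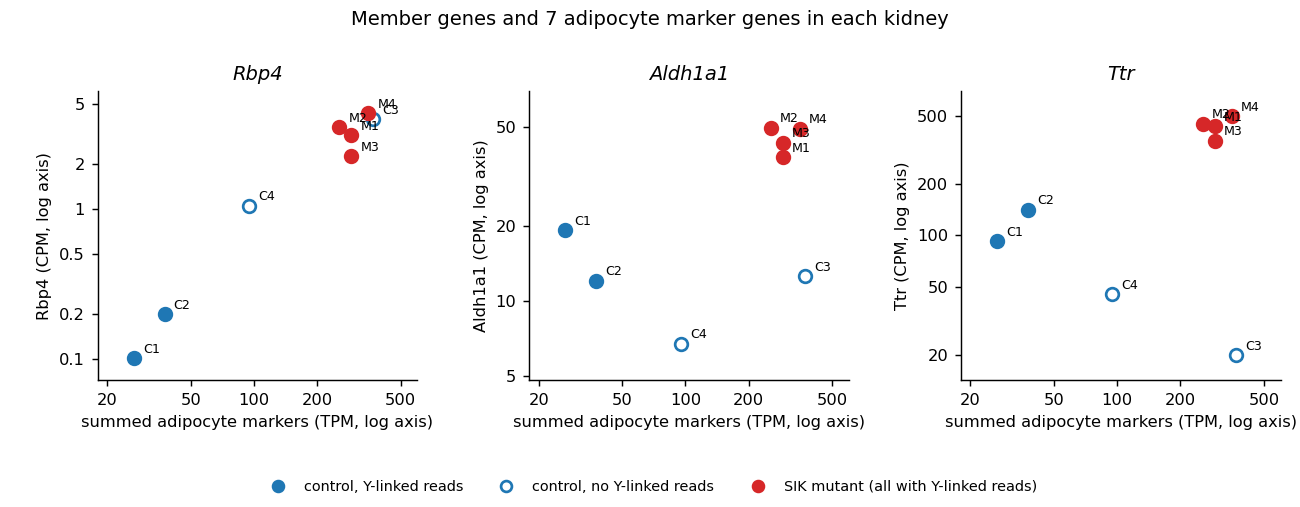
Normalised counts (CPM, log axis) of *Rbp4*, *Aldh1a1* and *Ttr* against the summed level of 7 adipocyte markers (TPM, log axis) in each of 4 control (blue, open without Y-linked reads) and 4 SIK mutant (red) kidneys. Control 3 sits with the SIK mutants for *Rbp4* at 3.96 CPM and far below them for *Aldh1a1* and *Ttr*.

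The summed level of 6 hepatocyte markers overlapped between groups, at 43.7 to 685.2 TPM in controls and 346.1 to 827.0 TPM in SIK mutants. *Cyp2e1* and *Serpina1a*, which kidney tubules also express, made up most of this sum and were lowest in controls 3 and 4. The liver-defining *Ahsg* was at most 0.09 TPM and *Alb* 1.73 to 5.83 TPM, highest in control 3. Of 10 adrenal markers, *Cyp11b1*, *Cyp11b2* and *Pnmt* were at 0 in all kidneys, and the sum of the list was at most 1.94 TPM.

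*Stra6*, the RBP4 receptor gene, was the least abundant of the 8 by TPM in SIK mutants. Controls 1 to 4 had 1.32, 1.38, 3.61 and 5.08 CPM, and SIK mutants 1 to 4 had 1.94, 1.16, 1.55 and 1.25 CPM. Only controls 3 and 4 were above the SIK mutants, and the groups overlapped. Its log2 fold change of −0.95 (SE 0.452) over 8 kidneys became 0.14 (SE 0.363) over the 6 kidneys with Y-linked reads. *Stra6* is located at chr9:58063788-58153996 on the plus strand.

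*Rarb* encodes a retinoic acid receptor that is itself a classical retinoic acid target. It had 8.53, 9.09, 11.4 and 16.9 CPM in controls 1 to 4 and 15.7, 8.56, 9.88 and 7.89 CPM in SIK mutants 1 to 4. The groups overlapped over nearly their whole range, and SIK mutant 1 and control 4 were again the highest. Its log2 fold change was −0.13 (SE 0.273) over 8 kidneys and 0.27 (SE 0.282) over the 6 kidneys. *Rarb* is located at chr14:16430839-16819156 on the minus strand. Its RefSeq promoter window (GRCm38.p6) holds the retinoic acid response element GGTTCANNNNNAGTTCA, a direct repeat of 17 bases, which was found on either strand in 2 of 32851 windows (0.00609%). The element is shown in capitals within chr14:16575507-16575536 (minus strand, 5′ to 3′) because it is the sequence by which this gene is known to respond to retinoic acid.
*Rarb*: cgggaagGGTTCACCGAAAGTTCActcgca

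It lies in an annotated first exon of *Rarb*, with 36 bases between it and the RefSeq start. The windows given for the other genes described did not hold it.

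The kidneys that were high for *Aldh1a2* and *Rarb* were also high for stromal and endothelial markers. The summed level of 5 stroma and smooth muscle markers (*Pdgfrb*, *Col1a1*, *Dcn*, *Acta2* and *Tagln*) was 36.8, 69.5, 74.1 and 112.5 TPM in controls 1 to 4 and 64.0 to 180.2 TPM in SIK mutants. That of 4 endothelial markers (*Pecam1*, *Cdh5*, *Kdr* and *Emcn*) was 59.3, 67.1, 98.3 and 111.6 TPM in controls and 97.7, 86.4, 80.3 and 60.0 TPM in SIK mutants. Control 4 and SIK mutant 1 were the highest of their group for both lists, as for both genes. The part of these cell types in the levels of *Aldh1a2* and *Rarb* was not tested.

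Set side by side per length, the levels of the 8 genes spanned a wide range. In SIK mutants *Ttr* averaged 486.8 ± 53.0 TPM, followed by *Aldh1a1* at 26.9 ± 3.48 TPM and *Aldh1a7* at 23.9 ± 3.22 TPM, which overlapped each other and lay below every *Ttr* value. *Aldh1a3* (0.360 to 29.7 TPM), *Rbp4* (3.41 to 6.36 TPM), *Rarb* (4.35 ± 1.39 TPM) and *Aldh1a2* (1.53 to 6.74 TPM) followed and overlapped, and *Stra6* averaged 0.775 ± 0.193 TPM. In controls *Ttr* averaged 74.7 ± 50.3 TPM (SD, n = 4), and its range of 22.3 to 138.8 TPM lay above the other 7 genes. *Aldh1a1* and *Aldh1a7* averaged 6.90 ± 2.23 and 6.36 ± 4.16 TPM there and overlapped with *Rarb* at 4.24 ± 1.82 TPM.

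Across all tested genes, 0 of 14326 (0.0%) passed an FDR of 0.05 in edgeR over the 8 kidneys, and 0 of the 8 genes did. Without adjustment, 911 genes (6.36%) and 3 of the 8 had a p under 0.05. In DESeq2, 0.387% of genes passed an FDR of 0.05, among them *Aldh1a1* and *Ttr*. Over the 6 kidneys edgeR called 0.143% of genes, among them *Aldh1a1*, *Ttr* and *Rbp4*. *Aldh1a1*, *Aldh1a7* and *Ttr* were among the 1.65% of genes that were higher in SIK mutants without overlap. Nothing is read from these counts, since the 8 genes were proposed with the same contrast known.

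**Figure D4:**
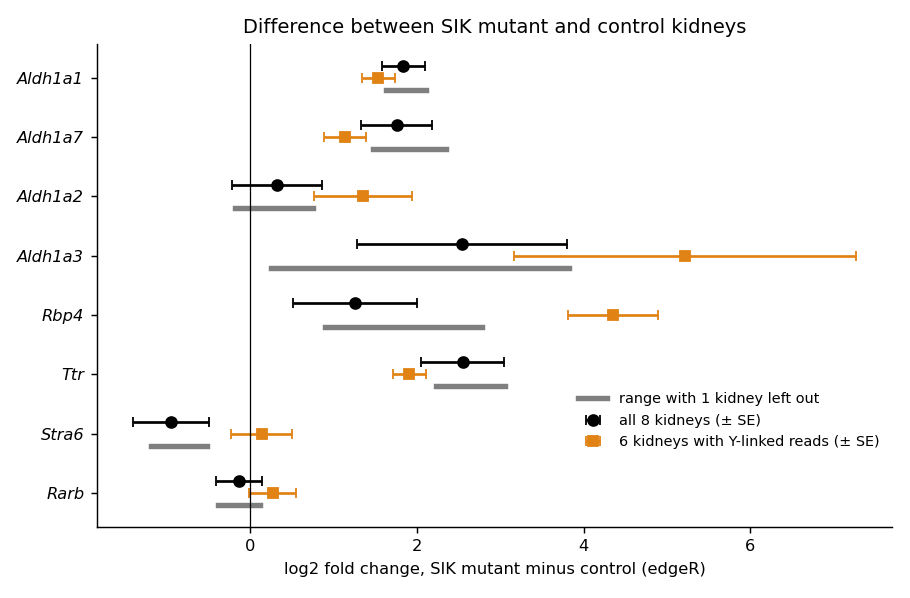
Log2 fold changes of the 8 genes (SIK mutant minus control, edgeR), with circles and SE over 8 kidneys, squares and SE over the 6 kidneys with Y-linked reads, and gray bars for the range when 1 kidney is left out. The estimates of *Aldh1a1*, *Aldh1a7* and *Ttr* stay above 1 in all of these, *Stra6* turns from −0.95 to 0.14, and the *Aldh1a3* bar reaches down to 0.25.

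The other genes of retinoid metabolism were examined as a list of 58, of which 40 passed the filter. At an FDR of 0.05 in edgeR, 0 of the 40 were called, and DESeq2 called 0 as well. Without adjustment, 3 had a p under 0.05 (1 higher and 2 lower), against 6.36% of all tested genes. Over the 6 kidneys with Y-linked reads the list genes tested were the 40 with *Adh7* and *Rxrg*. Of these, 9 had an edgeR unadjusted p under 0.05, against 1640 of 14719 tested genes. The 9 did not include those 3, but did include *Rxrg*, which was not among the 40, and 0 were called. The median log2 fold change of the list was −0.05, and that of all tested genes was 0.00, with 16 of the 40 above 0.

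By role, the retinol and retinal oxidoreductases had 15 of 21 genes measured, with a median log2 fold change of 0.00. *Dhrs3*, which reduces retinal back to retinol, averaged 258.6 ± 12.7 CPM in controls and 214.6 ± 21.8 CPM in SIK mutants without overlap (log2 fold change −0.27, edgeR unadjusted p 0.022, FDR 0.715), and its log2 fold change over the 6 kidneys was −0.23. *Adh1*, an alcohol dehydrogenase and by TPM the most abundant of these genes, averaged 345.1 ± 238.2 CPM in controls and 478.7 ± 104.1 CPM in SIK mutants, with log2 fold changes of 0.47 over 8 and −0.19 over 6 kidneys. Controls 3 and 4 had 145.1 and 138.2 CPM, against 392.2 to 627.3 CPM in all other kidneys. *Cyp26b1*, which hydroxylates and so clears retinoic acid, was the only 1 of 3 hydroxylase genes measured. It had 6.90, 0.889, 5.46 and 22.9 CPM in controls 1 to 4 and 4.77, 1.07, 1.74 and 2.31 CPM in SIK mutants 1 to 4 (log2 fold change −1.87, edgeR unadjusted p 0.0406, FDR 0.768), with overlap, and control 4 stood highest. Over the 6 kidneys its log2 fold change was −0.63.

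Among 10 retinoic acid induced genes 8 were measured, with 2 above and 6 below 0. *Nrip1*, a nuclear receptor corepressor, averaged 26.1 ± 1.39 CPM in controls and 30.4 ± 2.81 CPM in SIK mutants (log2 fold change 0.22, edgeR unadjusted p 0.0353, FDR 0.758). The groups barely separated by CPM, with the highest control and the lowest SIK mutant both at 27.6 CPM after rounding. By TPM they overlapped, with control 4 at 3.96 TPM and SIK mutant 4 at 3.57 TPM. *Tgm2*, a transglutaminase and the most abundant of this role, averaged 278.3 ± 20.7 and 269.2 ± 19.2 CPM. The 5 genes of uptake receptors, 5 of retinyl ester storage and release, 4 of nuclear receptors and 2 of intracellular binding proteins that were measured included none at an unadjusted p under 0.05 over the 8 kidneys. Their most abundant genes were the endocytic adaptor *Dab2* (log2 fold change −0.08 over 8 kidneys and −0.17 over the 6), the lipoprotein lipase gene *Lpl* (0.08 and −0.50), *Rxra* (0.11 and −0.05), which encodes the partner receptor of the retinoic acid receptors, and the fatty acid binding protein gene *Fabp5* (−0.14 and 0.79). Over the 6 kidneys *Fabp5* had an edgeR unadjusted p of 0.0101 (FDR 0.313), and the uptake receptor gene *Amn* a p of 0.0164 (FDR 0.35, log2 fold change −0.29), named after its values were seen. The other list genes at an unadjusted p under 0.05 in that fit had an FDR of 0.295 or above. Their log2 fold changes were 0.46 for *Rdh11*, −0.61 for *Bco2*, −0.28 for *Dhrs4* and for *Rdh5*, 1.21 for *Rdh16f2*, 0.53 for *Rarres2* and 1.78 for *Rxrg*.

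Of 17 other aldehyde dehydrogenase genes 16 were measured, and 0 were called in edgeR or in DESeq2. The median log2 fold change was 0.00. *Aldh1b1*, which encodes a mitochondrial aldehyde dehydrogenase, was 1 of 16 at an unadjusted p under 0.05. It averaged 4.82 ± 2.91 CPM in controls and 1.94 ± 0.345 CPM in SIK mutants (log2 fold change −1.32, edgeR unadjusted p 0.0138, FDR 0.702). Its values in controls 3 and 4, 7.75 and 6.83 CPM, were above the 1.55 to 2.94 CPM of all other kidneys, and the log2 fold change over the 6 kidneys was −0.27. *Aldh2*, the most abundant of the family, differed little, at 435.6 ± 11.4 CPM in controls and 461.2 ± 19.8 CPM in SIK mutants.

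**Figure D5:**
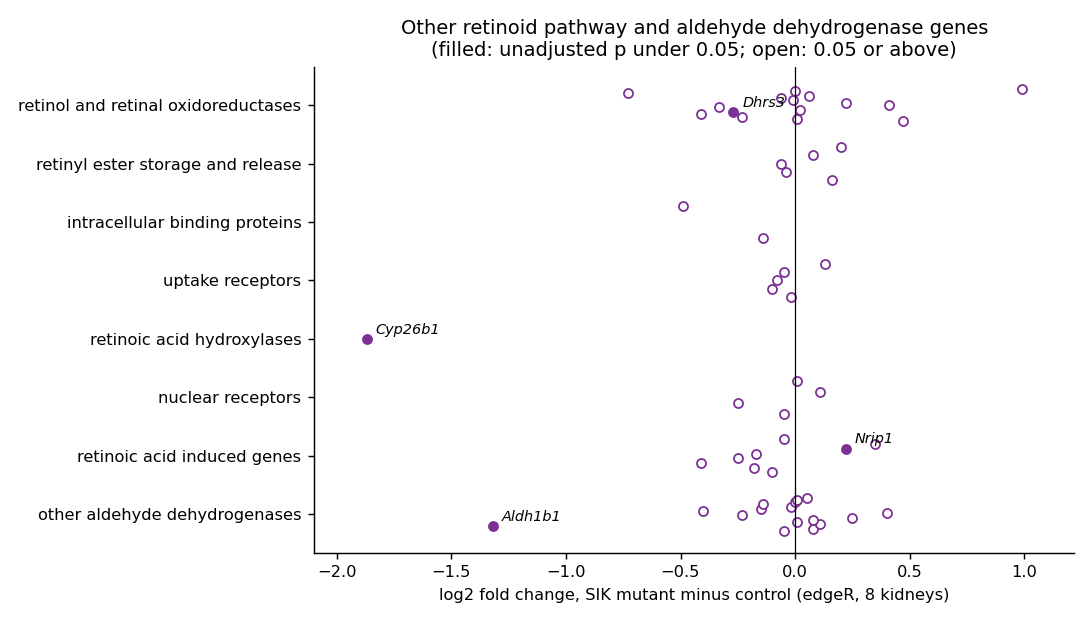
Log2 fold changes (SIK mutant minus control, edgeR, 8 kidneys) of the 40 other retinoid genes by role and the 16 other aldehyde dehydrogenase genes that passed the filter, 1 circle per gene, filled at an unadjusted p under 0.05. *Cyp26b1*, *Aldh1b1*, *Dhrs3* and *Nrip1* are the filled circles, and most genes lie close to 0.

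The genes whose variation within genotypes was most like that of *Aldh1a1* were found by Pearson correlation of log2 CPM over the 8 kidneys, after each genotype's mean was subtracted. Of 14325 genes the 5 highest were *Fbxo9* (r = 0.983), *Vps13a* (0.982), *Slc27a2* (0.971), *Oxnad1* (0.968) and *Sec61a1* (0.966). *Slc27a2*, a very long chain acyl-CoA synthetase gene, went from 3059.9 CPM in control 1 to 1690.1 CPM in control 4, as *Aldh1a1* went from 19.3 to 6.74 CPM. The log2 fold changes of these 5 between genotypes were −0.11 to 0.14, so their likeness is to the spread among kidneys and not to the difference between groups. By the same measure r was 0.894 for *Aldh1a7*, 0.292 for *Ttr*, −0.359 for *Rbp4*, −0.255 for *Aldh1a3*, −0.694 for *Aldh1a2*, −0.812 for *Stra6* and −0.818 for *Rarb*. These values are descriptions over 8 points that share their libraries and in which the controls vary most.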

How the data were processed

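RNA-Seq libraries of 4 control and 4 SIK mutant whole kidneys were used, with groups and replicate numbers from the sample titles and genotypes. The authors deposited a gene file for each kidney, without pooling. Its expected counts are RSEM estimates of reads per gene, and its TPM values were scaled by the authors to gene length and library total. RSEM's effective lengths and posterior standard deviations are other values in the deposited files. The submitters' processing notes name STAR 2.7.2b, RSEM 1.3.0, FastQC, DESeq2 and mm10. Of 55401 gene IDs, 55141 matched GENCODE M21 (GRCm38), 54349 of them with their version.

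Expected counts were rounded and tested with edgeR 4.0.16 (quasi-likelihood F test, legacy = TRUE, TMM, filterByExpr, Benjamini-Hochberg adjustment over 14326 genes) in R 4.3.3, without covariates. A call was an FDR under 0.05. CPM values use TMM factors and compare kidneys, and TPM compares genes. Fold changes are edgeR's, SIK mutant minus control. Their SE was worked back from the test, as the size of the log2 fold change over the square root of F, and is approximate, above all at low counts. Depth was 10179648 to 10925100 counts, intervals cover counting error only, and the p-values measure only the spread between these kidneys. No 2 kidneys of a group were duplicates (chi-square per degree of freedom 9.06 to 49.5 over 12 pairs). Sequences were aligned with Biopython 1.88. The promoter windows, from RefSeq, run from 250 bases before to 50 after each start.

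The 8 genes and all lists were chosen with earlier results of these data known. Named besides them were list genes at an FDR or an unadjusted p under 0.05, the list gene of highest mean TPM in each role, the 5 genes most like *Aldh1a1*, and tested genes that adjoin it. Genes named outside this rule were chosen after their values were seen. Alternatives were RLE and upper-quartile factors, DESeq2 1.42.0, limma 3.58.1 (voom, and trend on log2(TPM + 1) and log2(TPM + 0.1)), unrounded counts, a filter at a mean of 50 counts, no filter, effective-length offsets, legacy = FALSE, a replicate block, a Y-linked covariate, the 6 kidneys with Y-linked reads, and each kidney left out.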

Additional observations from a re-analysis of the deposited data

Results flagged for a closer look

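*Aldh1a3* in SIK mutant 3 was flagged on the CPM scale. Its value of 83.3 CPM compares with 1.06 to 10.1 CPM in the other SIK mutants. In CPM, without logarithms, the gap took up 0.89 of the group's range, more than Dixon's test allows for 4 samples. That test assumes normally distributed values, and the gap was not examined on log2 CPM. It was the only such kidney in 26 groups of 4 examined. Chance marks about 1 in 20 groups, or 1.3 of the 26, so the mark alone does not set this kidney apart. By a rule chosen after *Aldh1a3* was seen (at least 5 CPM and at least 4 times every other kidney), 9 genes stood out in SIK mutant 3 and 0 to 2 in each other kidney. The 9 were *Aldh1a3*, *Wnt4*, *Itga2*, *Prss35*, *Adgrf1*, *Klrg2*, *Celf3*, *Styk1* and *Gcnt3*, with *Wnt4* at 23.2 CPM against at most 4.05 CPM elsewhere.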

How the results depend on the processing

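Of the 8 log2 fold changes, those of *Aldh1a1* (1.53 to 2.11), *Aldh1a7* (1.12 to 2.35) and *Ttr* (1.87 to 3.06) kept their sign and moved by less than the spread between replicates under every alternative run, as did *Rarb* in size (−0.39 to 0.27), although its sign changed in 5 of 22. With the Y-linked covariate, *Stra6* became 0.14, *Aldh1a2* 1.35, *Aldh1a3* 5.41 and *Rbp4* 4.57. Over the 6 kidneys with Y-linked reads they were 0.14, 1.36, 5.22 and 4.35. *Stra6* was −0.24 on log2(TPM + 1), −0.35 on log2(TPM + 0.1) and −0.70 with the effective-length offset. With 1 kidney left out, *Rbp4* ranged from 0.90 to 2.78, *Aldh1a3* from 0.25 to 3.83 and *Aldh1a2* from −0.18 to 0.75. Genes called numbered 71 in DESeq2, 2 in limma-voom, 4 and 5 in limma-trend with pseudocounts of 1 and 0.1, 9 without a filter, 1 with legacy = FALSE, 15 with the Y-linked covariate, 21 over the 6 kidneys and 0 to 1 with a kidney left out. Genes with an unadjusted p under 0.05 numbered 1727 with the covariate, 1640 over the 6 kidneys and 593 to 1181 with a kidney left out, the lowest without SIK mutant 2. The retinoid list then had 10, 9 and 0 to 4 genes, and 6 without a filter. The other aldehyde dehydrogenases had 4, 2 and 1 to 2 genes, and 0 in limma-voom, with a mean of at least 50 counts and with the effective-length offset. Neither list had a gene called under any alternative. The cause of these changes was not tested.

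Kidneys with the same replicate number did not deviate together (correlation of deviations −0.288 to 0.0531 for the same number). The study's text names littermates without Cre as controls, and this check cannot show whether any kidneys were paired by litter. With the replicate block, *Aldh1a1* was 1.90, *Aldh1a7* 1.97, *Aldh1a2* 0.29, *Aldh1a3* 2.15, *Rbp4* 1.86, *Ttr* 2.88, *Stra6* −0.79 and *Rarb* −0.13, with 0 genes called, 657 at an unadjusted p under 0.05, and 1 gene of each list. Depth limits *Rbp4*, *Aldh1a3* and *Stra6*, whose lowest kidneys had 1, 3 and 13 counts.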

Other observations

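In a large share of retinoid genes, controls 3 and 4, the kidneys without Y-linked reads, lay outside the range of the other 6 kidneys. This held for 18 of 40 measured genes of the retinoid list (45.0%), 11 below and 7 above, for 5 of 16 other aldehyde dehydrogenases (31.2%) and for 3 of the 8 genes described (*Aldh1a7* and *Ttr* below, *Stra6* above), against 23.8% of all 14326 tested genes. *Rdh10*, the retinol dehydrogenase known for the first step towards retinoic acid, had 33.6 and 32.9 CPM in these controls and 58.8 to 83.4 CPM elsewhere. *Rdh16f2* had 300.1 and 319.8 CPM against 16.2 to 132.8 CPM, and *Aldh3a2*, a fatty aldehyde dehydrogenase gene, had 114.9 and 109.5 CPM against 166.4 to 276.9 CPM. The comparison and these 3 genes were chosen after the values were seen and was not tested, and all SIK mutants had Y-linked reads.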
